A study of Rattus rattus with 18 samples.

Results

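The metallothionein genes Mt2A (ENSRNOG00000043098) and Mt1-ps3 (ENSRNOG00000038047) were followed through 18 RNA-seq libraries of the rat hypothalamic arcuate nucleus (ARC). The pair was chosen by identifier, and makes up 2 of the 32883 genes counted in each library. The study's other gene table calls the second gene Mt1, and the symbol Mt1-ps3 marks it as a pseudogene of Mt1. Metallothioneins are small cysteine-rich proteins that bind zinc and copper and buffer their free levels in the cell. Their genes are induced by metals through the transcription factor MTF-1, by glucocorticoids, and by inflammatory cytokines through STAT3. In the brain they are found mainly in astrocytes and other non-neuronal cells.

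The animals were female Wistar rats (WSH in the labels), although the labels give the organism as Rattus rattus. In the diet-induced obesity (DIO) experiment, 3 libraries came from rats fed chow and kept sedentary (CS). A further 3 came from rats on a 60% high-fat diet that stayed sedentary (HFS). Another 4 came from rats on that diet with a running wheel for voluntary exercise (HFR). The study also describes a chow-fed running group and a larger HFS group for RNA-seq, whose other rats are not among these libraries. According to the study this experiment was run more than once, and the labels do not say which run each library came from. In the miR-211 experiment, chow-fed rats had a cannula in the third ventricle, which borders the ARC. After a night without food they were infused with MiRIDIAN hsa-miR-211-mimic (4 libraries) or with the matching hairpin inhibitor (4 libraries). According to the study these rats were killed within hours of the infusion. In the DIO experiment the high-fat diet began at weaning, and the wheel was given in the last weeks. The DIO experiment asked how diet and running alter the ARC, and the miR-211 experiment asked what raising or blocking this microRNA does there. The series holds no library from rats infused with a negative control, so neither agent is compared with one. Each library came from 1 rat, by bulk MARS-seq, which sequences the 3′ ends of transcripts.

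Counts on genes ranged from 4680736 to 7494207 per library in the DIO experiment and from 1275263 to 6615927 in the miR-211 experiment. Levels are given as CPM (counts on the gene relative to the library's total, at a common scale), scaled by TMM factors within each experiment. When each library was set against the per-animal columns of the study's gene tables, 8 of the 10 DIO libraries and all 8 miR-211 libraries had a matching column. CS replicate 2 and HFS replicate 2 had none. The DIO tests of the pair and the list medians are therefore given with and without these 2 libraries. Reads that aligned to more than 1 place made up 17.2% to 20.6% of each DIO library and were not counted on genes. Near-identical metallothionein copies can lose reads in this way, so the level of each single gene is uncertain.

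Mt2A stood at 35.2, 73.8 and 23.4 CPM in CS replicates 1, 2 and 3. In HFS it stood at 117, 73.7 and 63.7 CPM, and in HFR at 14.2, 36.5, 63.3 and 39.8 CPM. The means were 44.1 ± 26.4 (SD, n = 3) in CS, 84.9 ± 28.5 (SD, n = 3) in HFS and 38.4 ± 20.1 (SD, n = 4) in HFR. HFS was the highest group, and its lowest library lay just above the highest HFR library. CS and HFR overlapped. The highest CS library, replicate 2, lay among the HFS libraries and is one of the 2 without a matching column.

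Mt1-ps3 stood at 27.3, 57.0 and 19.1 CPM in CS, with a mean of 34.5 ± 20.0 (SD, n = 3). It stood at 62.8, 53.4 and 42.0 CPM in HFS, with a mean of 52.7 ± 10.4 (SD, n = 3). In HFR it stood at 16.4, 32.2, 25.1 and 34.4 CPM, with a mean of 27.0 ± 8.14 (SD, n = 4). The order of the group means was the same as for Mt2A, with HFS above CS and CS above HFR. All 4 HFR libraries lay below all 3 HFS libraries, and CS replicate 2 again lay within the HFS range.

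**Figure D1:**
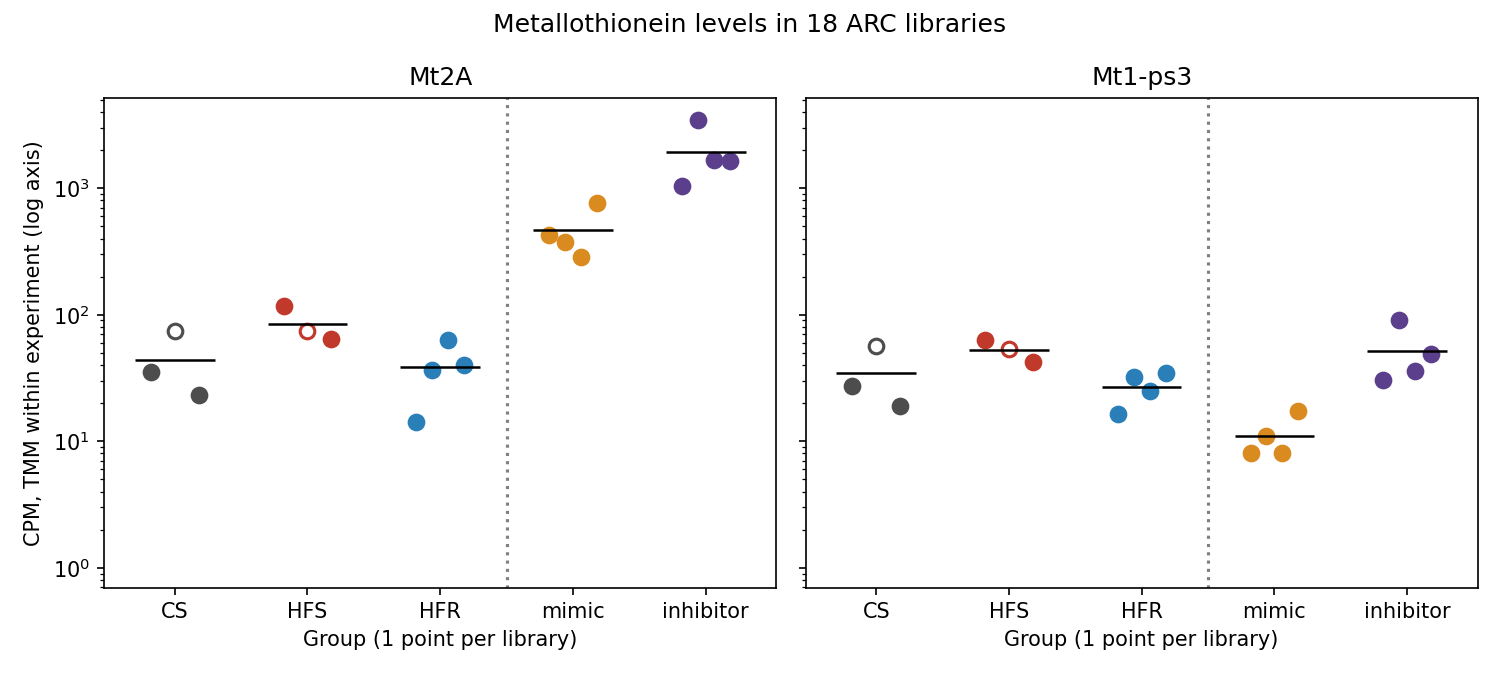
CPM of Mt2A and Mt1-ps3 on a log axis, with 1 point per library, black lines at the group means and open points for the 2 libraries without a matching column. Mt2A lies between 14.2 and 117 CPM in the DIO libraries and between 287 and 3444 CPM in the miR-211 libraries, while Mt1-ps3 overlaps between the experiments.

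The question of diet rests on HFS over CS, where Mt2A differed by 0.94 (SE 0.56) and Mt1-ps3 by 0.61 (SE 0.37) on the log2 scale. Neither gene passed the edgeR quasi-likelihood test (adjusted p = 0.994 for both, over 11892 genes), which called 1 gene at an adjusted p under 0.1, or 0.00841% of those tested. An exact two-sided permutation test of the log2 CPM gave p = 0.3 for each gene, where 3 libraries against 3 allow no p under 0.1. Without the 2 unmatched libraries, the differences on the log2 scale were 1.63 (SE 0.61) for Mt2A and 1.18 (SE 0.34) for Mt1-ps3. The groups of 2 libraries then did not overlap (exact p = 0.333 for each gene, the smallest possible), and neither did those of 20.9% of the genes tested, higher in HFS. In that fit the edgeR adjusted p was 0.561 for Mt2A and 0.514 for Mt1-ps3.

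HFR over CS gave -0.21 (SE 0.53) for Mt2A and -0.35 (SE 0.35) for Mt1-ps3 on the log2 scale. Neither was called (edgeR adjusted p = 0.999 and 0.995), in a comparison that called 2 genes, 0.0168% of those tested. The exact two-sided permutation test gave p = 0.8 for Mt2A and p = 0.686 for Mt1-ps3. The 3 DIO comparisons share libraries with one another and are not independent. Both signs of HFR over CS turned without the 2 unmatched libraries, to 0.40 (SE 0.54) for Mt2A and 0.23 (SE 0.30) for Mt1-ps3. The edgeR adjusted p was then 0.936 for Mt2A and 0.931 for Mt1-ps3. The exact permutation test then gave p = 0.667 for each gene.

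Between the high-fat groups, HFR over HFS was -1.14 (SE 0.52) for Mt2A and -0.96 (SE 0.34) for Mt1-ps3 on the log2 scale. The unadjusted edgeR p was 0.0555 for Mt2A and 0.0165 for Mt1-ps3 by the quasi-likelihood test, and the adjusted p was 0.989 for both. No gene was called in this comparison, or 0% of those tested, while 504 genes had an unadjusted p under 0.05 and DESeq2 called 1 gene. Both genes lay lower in all 4 HFR libraries than in any HFS library, as did 3.68% of the genes tested. The exact two-sided permutation test gave p = 0.0571 for each, the smallest that 4 libraries against 3 allow. Without the unmatched libraries the values were -1.23 (SE 0.49) for Mt2A and -0.94 (SE 0.28) for Mt1-ps3, with an edgeR adjusted p of 1 for both. The exact permutation p was 0.133 for each gene, the smallest possible, and 7.84% of genes then lay lower in HFR without overlap.

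In the miR-211 experiment Mt2A stood at 428, 374, 287 and 769 CPM in mimic replicates 1 to 4, with a mean of 465 ± 211 (SD, n = 4). In inhibitor replicates 1 to 4 it stood at 1038, 3444, 1662 and 1634 CPM, with a mean of 1944 ± 1041 (SD, n = 4). Every mimic library lay below every inhibitor library, which held for 3.71% of the 9625 genes tested. The highest level was that of inhibitor replicate 2.

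Mt1-ps3 stood at 8.04, 10.9, 8.10 and 17.3 CPM in mimic, with a mean of 11.1 ± 4.35 (SD, n = 4). It stood at 30.5, 90.0, 35.7 and 48.7 CPM in inhibitor, with a mean of 51.2 ± 27.0 (SD, n = 4). The groups again did not overlap, and the highest library was again inhibitor replicate 2. The mimic values rest on few reads, with 27, 23, 19 and 22 counts against 47, 186, 70 and 326 in inhibitor.

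Mimic over inhibitor was -2.29 (SE 0.39) on the log2 scale for Mt1-ps3, with an edgeR adjusted p of 0.0383, and this gene was called lower. For Mt2A it was -2.07 (SE 0.45), with an edgeR adjusted p of 0.159, which missed the threshold of 0.05. The comparison called 43 genes, or 0.447% of those tested, 42 lower and 1 higher in mimic. The exact two-sided permutation test gave p = 0.0286 for each gene, the smallest that 4 libraries against 4 allow. DESeq2 called both genes, with an adjusted p of 0.00144 for Mt2A and 1.2e-06 for Mt1-ps3. That tool called 176 of the 9625 genes tested. The edgeR call of Mt1-ps3 was lost when any 1 mimic library or inhibitor replicate 4 was left out, with adjusted p between 0.0713 and 0.172, and in the absence of a filter on low counts (0.0625). A lower level can come from fewer cells that hold the transcript or from less of it per cell, and bulk libraries cannot tell these apart.

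**Figure D2:**
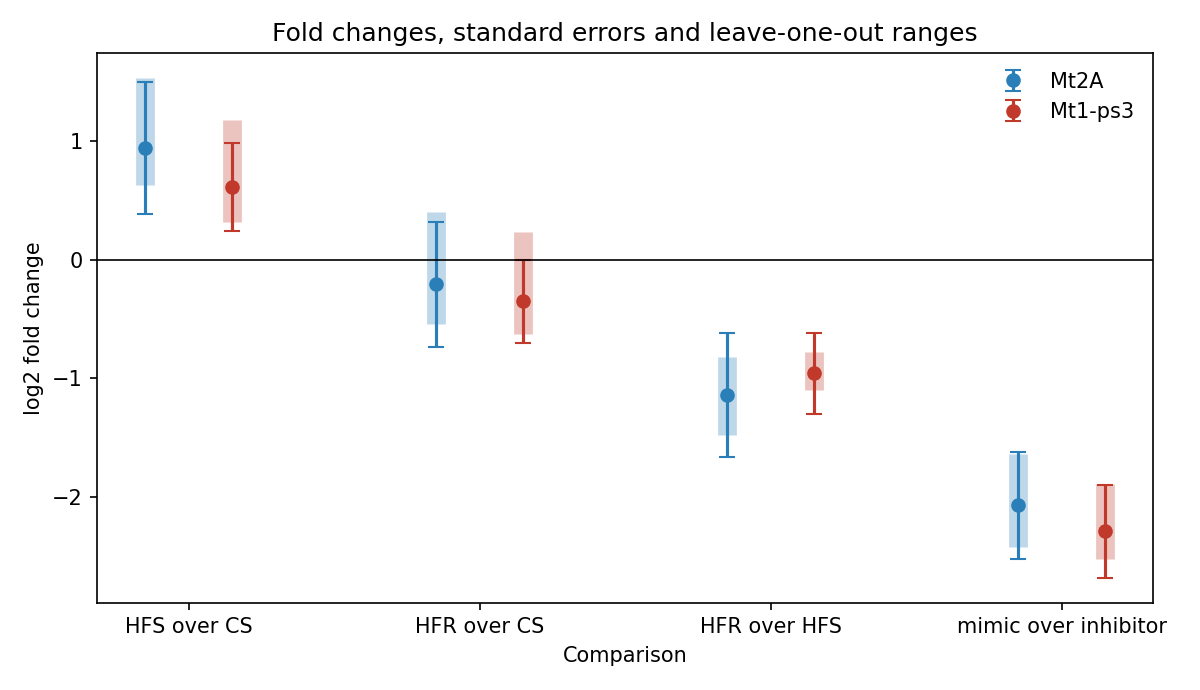
Log2 fold changes of Mt2A and Mt1-ps3 in 4 comparisons within an experiment, as points with bars of 1 standard error from edgeR, and shaded bands from the lowest to the highest value when each library was left out in turn. The HFR over CS bands cross 0, and the mimic over inhibitor bands run from -2.42 to -1.64 for Mt2A and from -2.52 to -1.89 for Mt1-ps3.

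Also metallothioneins by the study's tables were Mt1m (ENSRNOG00000028841) and AC128848.1 (ENSRNOG00000025764), which is described as Mt1. Mt1m had DIO means of 27.3 ± 18.8 CPM in CS (SD, n = 3), 54.9 ± 17.6 in HFS (SD, n = 3) and 27.7 ± 12.1 in HFR (SD, n = 4). Its differences on the log2 scale were 1.00 (SE 0.54) in HFS over CS, 0.02 (SE 0.51) in HFR over CS and -0.99 (SE 0.49) in HFR over HFS, none called by edgeR. HFR replicate 3 (40.7 CPM) lay just above HFS replicate 3 (40.0 CPM). Without the 2 unmatched libraries its means were 16.8 CPM in CS and 57.2 in HFS (n = 2 each). Its 3 differences on the log2 scale were then 1.76 (SE 0.54), 0.72 (SE 0.48) and -1.04 (SE 0.44), in the same order, none called by edgeR. In the miR-211 experiment its means were 71.5 ± 31.7 CPM in mimic and 271 ± 144 in inhibitor (SD, n = 4 each). Its log2 fold change of mimic over inhibitor was -1.95 (SE 0.45, edgeR adjusted p = 0.163). That of AC128848.1 was -2.37 (SE 0.47, edgeR adjusted p = 0.118). The 4 values thus ran from -2.37 to -1.95, and edgeR called 1 of the 4, Mt1-ps3, beside 0.447% of all genes, a call that dropping any 1 mimic library removed. DESeq2, read here for Mt2A and Mt1-ps3, called both, beside 176 of 9625 genes called by that tool.

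The sum of the 4 metallothioneins was 84.6, 180 and 54.1 CPM in CS, 256, 178 and 146 CPM in HFS, and 42.7, 101, 129 and 100 CPM in HFR. It was 656, 646, 464 and 1243 CPM in mimic and 1693, 5767, 2786 and 3018 CPM in inhibitor. The sum was lower in every mimic than in any inhibitor library, as were 3.71% of single genes, and lower in every HFR than in any HFS library, as were 3.68%. The HFR and HFS order holds for Mt2A and Mt1-ps3 but not for Mt1m, and the CS range without replicate 2 was 54.1 to 84.6 CPM.

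Uninjected and injected rats differed in experiment, age, housing, RNA kit, surgery, fasting and the correction of counts for molecular identifiers. They also differed in the infusion itself, which gave every injected rat an oligonucleotide with a transfection reagent. The HFS and HFR rats further differed from the injected rats in diet, and the HFR rats in the running wheel. These differences cannot be told apart. In a joint fit of all 18 libraries, the mean of mimic and inhibitor over CS was 4.40 (SE 0.60) on the log2 scale for Mt2A, with an edgeR adjusted p of 3.15e-05. For Mt1-ps3 it was -0.60 (SE 0.35), with an edgeR adjusted p of 0.167. The comparison called 6157 of 12657 genes, or 48.6%. Without the 2 unmatched libraries the values were 4.95 for Mt2A and -0.07 for Mt1-ps3.

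Mt2A was higher in all 8 injected rats than in any of the 10 uninjected rats, as were 12.4% of the genes tested, while Mt1-ps3 overlapped. Mt1m was 2.30 higher on the log2 scale (SE 0.52, edgeR adjusted p = 0.00198), between the pair. AC128848.1 had 0, 6 and 0 counts in CS, 8, 0 and 3 in HFS, and 0, 0, 0 and 3 in HFR. It had 534, 400, 304 and 434 counts in mimic and 741, 3624, 1689 and 7371 in inhibitor. The metallothioneins thus did not shift alike between the experiments.

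The ratio of Mt2A to Mt1-ps3 counts does not depend on library size. It was 1.29, 1.29 and 1.22 in CS, 1.87, 1.38 and 1.52 in HFS, and 0.866, 1.13, 2.52 and 1.16 in HFR. It was 53.2, 34.3, 35.5 and 44.5 in mimic and 34.0, 38.3, 46.6 and 33.6 in inhibitor. Every injected rat thus had a ratio above that of every uninjected rat, with medians of 36.9 and 1.29. Within the miR-211 experiment mimic and inhibitor overlapped.

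**Figure D3:**
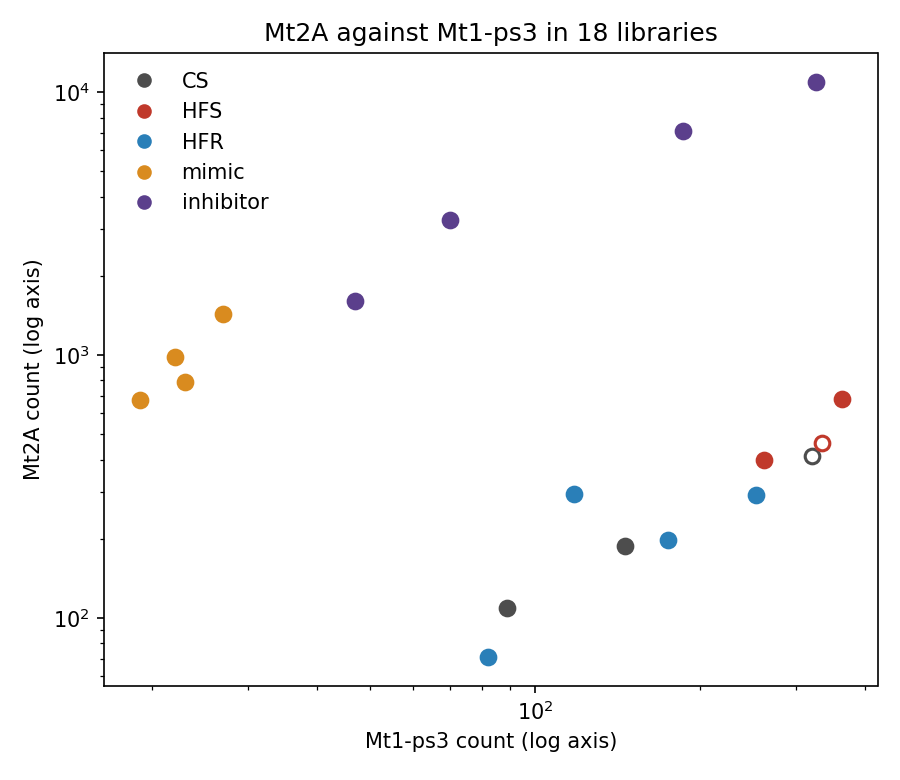
Counts of Mt2A against counts of Mt1-ps3 on log axes, with 1 point per library coloured by group and open points for the 2 libraries without a matching column. The DIO and the miR-211 libraries lie along separate bands, with ratios of 0.866 to 2.52 and of 33.6 to 53.2.

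The log2 ratio was compared in 4 ways within the experiments by exact two-sided permutation tests, and with all libraries no adjusted p was below 0.4. The difference of HFS over CS was 0.31 (exact p = 0.1, the smallest possible, as all 3 HFS ratios lay above all 3 CS ratios; adjusted over the 4 comparisons 0.4), from means of 0.66 ± 0.22 and 0.34 ± 0.04 (SD, n = 3 each). HFR over CS was 0.04 (exact p = 0.914) and HFR over HFS -0.28 (exact p = 0.629), and their adjusted values were 0.914 and 0.838. Mimic over inhibitor was 0.10 (exact p = 0.629, adjusted 0.838), from means of 5.33 ± 0.30 and 5.23 ± 0.22 (SD, n = 4 each). Without the unmatched libraries the DIO differences were 0.42, 0.05 and -0.37, each with an adjusted exact p of 0.8. HFR replicate 3, with the highest DIO ratio, sets the HFR values: without it HFR over CS was -0.28 and HFR over HFS -0.59, each with an adjusted exact p of 0.133. The HFR ratios left then lay below every CS and every HFS ratio, so each unadjusted exact p was the smallest possible for these group sizes.

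As a share of the 4 metallothioneins, Mt1-ps3 made up 19.5% to 38.3% in the DIO libraries and 1.23% to 1.80% in the miR-211 libraries. Mt2A made up 33.2% to 49.0% and 54.1% to 65.2%, Mt1m 21.4% to 32.1% and 7.78% to 11.0%. AC128848.1 made up at most 0.594% in the DIO libraries (0.539% without the unmatched libraries, which set no other limit of these ranges) and 24.2% to 36.5% in the miR-211 libraries. The share held by Mt1-ps3 was thus lower, and that of AC128848.1 higher, in every miR-211 library. Reads that aligned to several places were not counted on genes in the DIO experiment. Their share is not given for the miR-211 experiment, and how they were treated there was not tested.

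**Figure D4:**
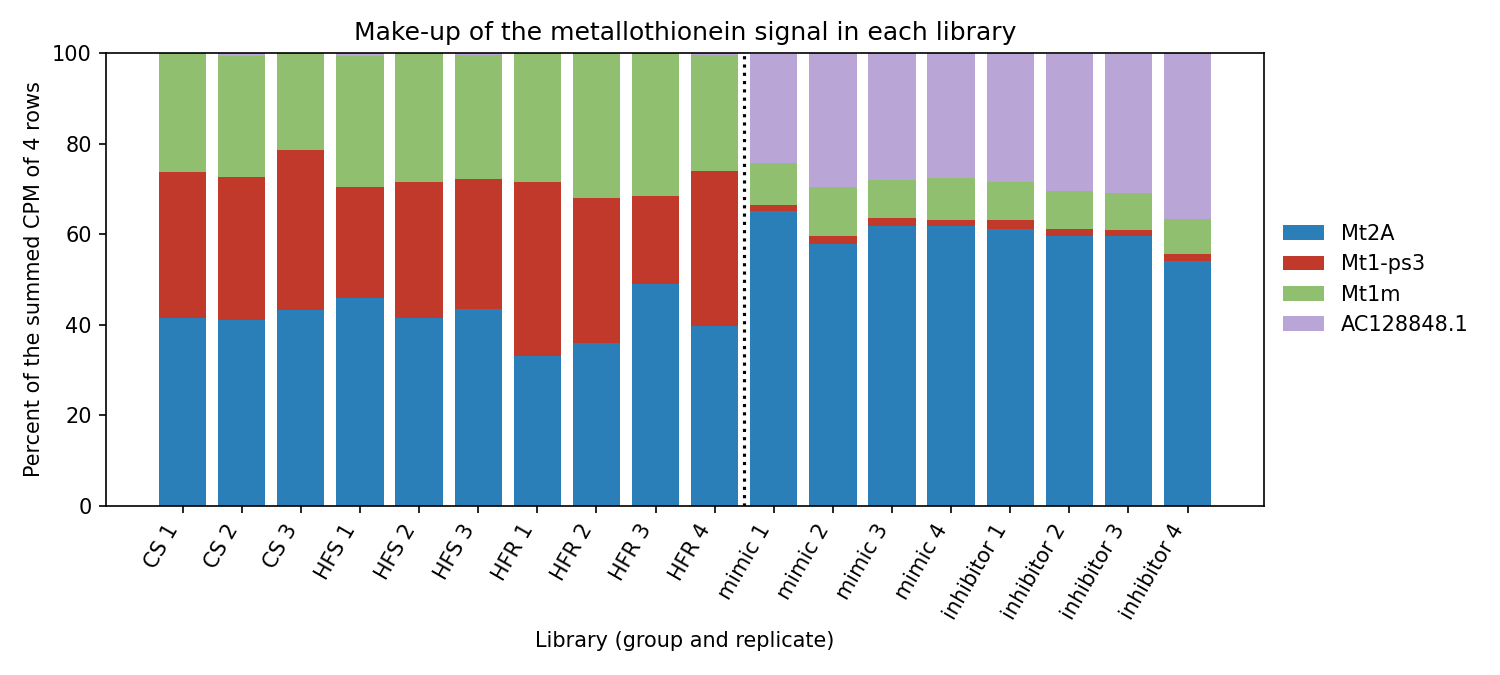
Percent of the summed CPM of 4 metallothionein genes held by each gene, with 1 bar per library and a dotted line between the DIO and miR-211 experiments. Mt1-ps3 holds at least 19.5% left of the line and at most 1.80% right of it, where AC128848.1 holds at least 24.2%.

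Across the 10 DIO libraries Mt2A and Mt1-ps3 were correlated, with a Pearson r of 0.90 (permutation p = 0.00034) and a Spearman rho of 0.93 (permutation p = 0.00034) of log2 CPM. This was the 1 relation tested in this way. Without HFR replicate 1 and HFS replicate 1, the libraries farthest from the median of Mt2A, r was 0.80 (exact permutation p = 0.0203, n = 8). With group means subtracted r was 0.83 (permutation p = 0.00338), and without the unmatched libraries 0.89 (exact permutation p = 0.00432, n = 8). No pooled r of Mt2A with Mt1-ps3 is given for mimic and inhibitor, which lay apart in groups of 4.

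Among the other 11891 genes tested in the DIO experiment, the gene most like Mt2A over 10 libraries was Mt1m, with a Pearson r of 0.965 of log2 CPM. Ucma and Vstm4 were also among the 5 most like it, with r of 0.960 and 0.951, beside 2 genes without a symbol. Mt1-ps3 stood at place 35 in that order. The gene most like Mt1-ps3 was ENSRNOG00000014936, with r of 0.968, followed by Timp1, an inhibitor of matrix metalloproteinases, with r of 0.964. Cd74, the invariant chain of MHC class II, had r of 0.950, and 2 further genes in the 5 had no symbol. Over the 8 matched libraries these r were 0.958 for Mt1m, 0.981 for Ucma, 0.947 for Vstm4, 0.961 for ENSRNOG00000014936, 0.976 for Timp1 and 0.929 for Cd74.

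Over the 8 miR-211 libraries the genes most like Mt2A were Mt1m (r of 0.993), AC128848.1 (0.989), Eif4e2 (0.987), 1 gene without a symbol (0.984) and Bcl3 (0.982). Those most like Mt1-ps3 were Bcl3 (r of 0.993), Tnfrsf1a (0.990), AC128848.1 (0.990), Icam1 (0.983) and Bak1 (0.982). Bcl3 is a regulator of NF-kB, Tnfrsf1a a receptor of TNF, and Icam1 an adhesion molecule of activated endothelium. These r describe 8 libraries in 2 groups, and with group means subtracted they lay between 0.916 and 0.976.

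Genes of the pathways that induce or share work with metallothioneins were counted from 3 lists. Symbols came only from the study's gene tables, which list genes picked on these samples, so the counts are not independent evidence of a direction. Calls of list genes and markers are those of edgeR, and DESeq2 calls among them were not analysed here. Of 16 genes of zinc and metal handling, 5 had an identifier: Slc39a14, Steap4, Tf, Lcn2 and Hmox1. Lcn2 is also on the acute-phase list and Tf on the list of oligodendrocyte markers. None was called between mimic and inhibitor, all 5 lay below 0, and their median log2 fold change was -1.95, beside 0.01 over all genes. The medians were 0.45 in HFS over CS, 0.20 in HFR over CS and -0.18 in HFR over HFS, with no call, and 0.67, 0.22 and -0.34 without the unmatched libraries.

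Of 12 glucocorticoid-responsive genes, 6 had an identifier, and all 6 lay lower in mimic, with a median of -1.19 on the log2 scale. Called lower were Sgk1, a kinase that regulates ion transport (-1.21, SE 0.21, edgeR adjusted p = 0.0377), and Gpd1, a glycerol-3-phosphate dehydrogenase (-1.16, SE 0.20, edgeR adjusted p = 0.0380), beside 0.447% of all genes called. Both calls were lost without mimic replicate 1 or without mimic replicate 3. Without mimic replicate 2 the comparison called 2 genes, and without inhibitor replicate 4 it called 1. Whether these held any list gene or marker was not analysed here. In the DIO comparisons no gene of this list was called. The medians were 0.35 in HFS over CS, 0.29 in HFR over CS and -0.07 in HFR over HFS. Without the unmatched libraries they were 0.45, 0.35 and -0.14.

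Of 13 genes of the acute-phase cytokine and STAT3 response, 12 had an identifier. Some members had almost no counts in mimic or in CS and passed the filter on low counts through the other group alone, which fixes their direction. Lists are therefore described, in comparisons with injected rats, over members with a mean of at least 10 counts in both groups, a minimum chosen after the values were seen. Between mimic and inhibitor 8 acute-phase genes had this mean, all 8 lay below 0, and their median was -1.84. Bcl3 was called lower (-1.74, SE 0.28, edgeR adjusted p = 0.0361), beside 0.447% of all genes, and this call too was lost without mimic replicate 1 or 3. In the DIO experiment 7 passed the filter and none was called. Their median was 0.61 in HFS over CS, 0 in HFR over CS and -0.63 in HFR over HFS, and without the unmatched libraries 1.02, 0.34 and -0.68. Over all genes the medians lay between -0.01 and 0.01 in these comparisons.

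In injected over CS, 4 of 5 genes of metal handling, 5 of 6 glucocorticoid-responsive genes and 6 of 6 acute-phase genes with that mean were called higher, and none lower, with medians of 1.89, 0.88 and 4.03. Of all 12657 genes tested there, 24.0% were called higher, and the median was -0.01. The experiment and the treatment of the rats cannot be told apart here either.

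Markers of cell types that an ARC punch can hold were summed in each library, and their part in the metallothionein results was not tested. Of 8 astrocyte markers, 2 had an identifier, Gfap and Gjb6, with Gfap the more abundant. Their sum was 596, 1514 and 547 CPM in CS, 2784, 1186 and 2095 in HFS, and 464, 1229, 1659 and 1834 in HFR. CS replicate 2 was the highest CS library and HFR replicate 1 the lowest HFR library in this sum, as for Mt2A and Mt1-ps3. The same held for Nes and for the microglia and arcuate neuron sums given below, so it is not particular to astrocyte markers. In HFS the lowest library was replicate 2 in the astrocyte sum but replicate 3 in Mt2A and Mt1-ps3. The median of the pair of markers was 0.89 in HFS over CS, 0.29 in HFR over CS and -0.60 in HFR over HFS, and 1.60, 0.84 and -0.75 without the unmatched libraries, with no call. In mimic the sum was 1183, 2014, 1337 and 2948 CPM and in inhibitor 1949, 2750, 2655 and 2692, which overlapped. Gfap sets this sum, and the 2 markers went opposite ways in mimic over inhibitor (-0.45 for Gfap and 0.33 for Gjb6 on the log2 scale, neither called). In injected over CS, Gfap was called higher (1.41) and Gjb6 lower (-0.65), with an edgeR adjusted p of 0.0280 for each. Of all 12657 genes tested there, 3038 were called higher and 3119 lower.

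Of 8 markers of microglia and macrophages, 6 had an identifier. The most abundant by group mean was C1qa in CS, C1qb in HFS and HFR, and Lyz2 in mimic and inhibitor. The 6 markers summed to 355, 545 and 380 CPM in CS, 653, 502 and 608 in HFS, and 345, 352, 404 and 535 in HFR. In mimic they summed to 431, 544, 602 and 607 CPM, and in inhibitor to 585, 1839, 847 and 1332. The 5 with a mean of at least 10 counts in both groups lay below 0 in mimic over inhibitor, with a median of -0.52 and no call. All 6 lay above 0 in HFS over CS (median 0.55) and below 0 in HFR over HFS (-0.61), the same signs as for Mt2A and Mt1-ps3, and none was called. Their median was -0.13 in HFR over CS, and without the unmatched libraries the 3 DIO medians were 0.90, 0.21 and -0.70. In injected over CS, 3 of the 6 were called higher and none lower, beside 24.0% of all genes called higher, with a median of 0.60.

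Of 6 neutrophil markers, 4 had an identifier: S100a8, Mcemp1, Trem1 and Il1r2. By group mean the most abundant was S100a8 in CS, mimic and inhibitor and Il1r2 in HFS and HFR. Il1r2 is also on the acute-phase list. The 4 markers summed to 11.0, 5.70, 8.53 and 6.29 CPM in mimic and to 9.08, 184, 70.3 and 152 CPM in inhibitor. Inhibitor replicate 1, which also had the lowest Mt2A and Mt1-ps3 of its group, lay within the mimic range of this sum. In the DIO libraries the sum was at most 2.08 CPM. It was 0.187, 0.178 and 1.07 in CS, 0.517, 1.60 and 2.08 in HFS, and 0.399, 2.03, 0 and 1.36 in HFR, and Mcemp1 had 0 counts in all 10. None of the 4 reached a mean of 10 counts in both groups of any comparison, so no count of calls or median is given for them.

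Pomc and Ghrh, 2 of 8 arcuate neuron markers, had an identifier, with Pomc the more abundant. Their sum was 493, 965 and 214 CPM in CS, 1090, 943 and 1140 in HFS, 217, 1003, 1193 and 986 in HFR, 469, 810, 65.3 and 1100 in mimic, and 251, 631, 624 and 659 in inhibitor. Mimic replicate 3, the lowest in this sum, was also the lowest library of its experiment in Mt2A. In Mt1-ps3 the lowest mimic library was replicate 1. In CS the order of the 3 libraries was the same for this sum as for Mt2A and Mt1-ps3, and HFR replicate 1 was the lowest HFR library in all 3 measures. The order differed in HFS, where replicate 3 was the highest in this sum and the lowest in Mt2A and Mt1-ps3. The markers' median was 0.04 in mimic over inhibitor. It was 0.76 in HFS over CS, 0.62 in HFR over CS and -0.13 in HFR over HFS, or 1.41, 1.27 and -0.15 without the unmatched libraries, with no call.

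Of 6 endothelial markers 3 had an identifier (Selp, Slc2a1 and Icam1), with Slc2a1 the most abundant. They summed to 234, 266 and 245 CPM in CS, 273, 215 and 237 in HFS, 214, 224, 235 and 203 in HFR, 197, 158, 175 and 163 in mimic, and 330, 402, 247 and 286 in inhibitor. Slc2a1 and Icam1 reached the mean of 10 counts, with a median of -1.27 in mimic over inhibitor. Icam1 was called lower (-1.88, SE 0.33, edgeR adjusted p = 0.0485), beside 0.447% of all genes, and the call was lost without mimic replicate 1 or 3. The DIO medians were 0.02, -0.29 and -0.31 for HFS over CS, HFR over CS and HFR over HFS, or 0.30, -0.08 and -0.40 without the unmatched libraries. In injected over CS, Icam1 was called higher (1.47, edgeR adjusted p = 0.000505) and Slc2a1 lower (-0.30, edgeR adjusted p = 0.0466). These calls stand beside 3038 of 12657 genes called higher and 3119 called lower. The sum was lower in every mimic library than in any inhibitor library, as were 3.71% of single genes.

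Of 6 tanycyte markers 1 had an identifier, Nes, at 11.6, 27.6 and 9.44 CPM in CS, 35.2, 17.6 and 14.3 in HFS, 4.98, 10.5, 15.6 and 14.0 in HFR, 11.0, 8.07, 4.27 and 24.4 in mimic, and 66.2, 16.0, 7.64 and 18.7 in inhibitor. Its log2 fold change was -1.22 in mimic over inhibitor and was not called. It was 0.45 in HFS over CS, -0.53 in HFR over CS and -0.98 in HFR over HFS, or 1.23, 0.11 and -1.12 without the unmatched libraries. Mimic and inhibitor overlapped for it, which they did not for Mt2A or Mt1-ps3.

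Mbp and Tf, 2 of 4 oligodendrocyte markers, had an identifier, with Mbp the more abundant. They summed to 8303, 13080 and 10152 CPM in CS, 19719, 17612 and 12910 in HFS, 15399, 10973, 13107 and 15325 in HFR, 6484, 9292, 11233 and 5957 in mimic, and 10602, 7730, 9154 and 7295 in inhibitor. The groups of each experiment overlapped, but without the unmatched libraries both CS libraries lay below both HFS libraries, as they did for 20.9% of single genes. They did so too for Nes and for the astrocyte, microglia and arcuate neuron sums, while the endothelial and neutrophil sums overlapped. The median of the oligodendrocyte markers was -0.16 in mimic over inhibitor. It was 0.70 in HFS over CS, 0.34 in HFR over CS and -0.35 in HFR over HFS, or 0.90, 0.52 and -0.38 without the unmatched libraries, with no call. For fibroblasts (5 listed), choroid plexus (3) and blood (3) no marker had an identifier, so none was measured beside Mt2A and Mt1-ps3. The arcuate neuron, tanycyte and oligodendrocyte markers had no call in injected over CS, with medians of -0.07, 0.04 and -0.20. By edgeR no marker that passed the filter on low counts was called in a DIO comparison, with or without the 2 unmatched libraries. The neutrophil markers and Selp did not pass it there.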

How the data were processed

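The authors aligned bulk MARS-seq reads to Rnor6 (STAR 2.7.9a), removed duplicates (SAMtools) and assigned reads to Ensembl genes without regard to strand (HTSeq 0.13.5). The deposited files hold counts as whole numbers for 32883 genes, with no scaling. Only the miR-211 counts are stated to be corrected by molecular identifiers. In the DIO files, 22.4% to 26.3% of reads fell outside genes and 1.75% to 2.12% were ambiguous, and neither entered totals or tests.

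The tests used edgeR 4.0.16 (filterByExpr, TMM, robust quasi-likelihood) with limma 3.58.1, and DESeq2 1.42.0, under R 4.3.3. Summaries, exact tests and plots used scipy 1.17.1, numpy 2.4.6, pandas 2.3.3 and matplotlib 3.10.9 under Python 3.11.15. P-values were adjusted by Benjamini-Hochberg over all genes tested, with calls at 0.1 in the DIO experiment and 0.05 elsewhere. Fits held the 10 DIO, the 8 miR-211 or all 18 libraries. A standard error is the log2 fold change over the root of its F statistic. Log2 CPM used a prior count of 2, and log2 ratios a pseudocount of 0.5. A library matched a per-animal column of the study's tables when the log2 ratio over genes had an interquartile range under 0.01.

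Genes named are the pair, the genes the study's tables describe as metallothionein, called members of 3 pathway lists and of the cell type markers, and the 5 genes most correlated with each of the pair. Other members are named to say which genes a list or sum holds or which was most abundant, and Nes as the single tanycyte marker. Il1b is named under the other observations, after its values were seen. Members and lists were chosen with earlier results of these data known. The study's tables gave symbols for 607 genes. The gene table at hand, for Rattus rattus, holds 0 of the 32883 identifiers. The alternatives were another tool (DESeq2), other normalizations (RLE, upper quartile), filters, pseudocounts and prior counts, blocking on replicate number, leaving out single libraries, fitting only the groups compared, subtracting group means, and dropping the 2 unmatched libraries. The combination of DESeq2 with that last choice was chosen after seeing the data.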

Additional observations from a re-analysis of the deposited data

How the results depend on the processing

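The direction and the side of the threshold held in 213 of 230 values of the gene, ratio and correlation results. This share says little about how firm a call is. Many of these results lay far from the threshold, and some values left out a library outside the groups compared. Mt1-ps3 in mimic over inhibitor, the only edgeR call of the pair within an experiment, was kept in 3 of 8 fits with a library left out. When single libraries were dropped, HFS over CS ranged from 0.63 to 1.53 for Mt2A and from 0.32 to 1.18 for Mt1-ps3, and HFR over HFS from -1.48 to -0.82 and from -1.10 to -0.78. HFR over CS ranged from -0.54 to 0.40 for Mt2A and from -0.63 to 0.23 for Mt1-ps3. It turned positive without CS replicate 2 (0.40 and 0.23), for Mt2A also without HFR replicate 1 (0.07), and without both unmatched libraries, by edgeR and by DESeq2 (0.40 and 0.23). Mimic over inhibitor ranged from -2.42 to -1.64 for Mt2A, with no edgeR call (adjusted p 0.0745 to 0.372), and from -2.52 to -1.89 for Mt1-ps3. The Mt1-ps3 call was lost without mimic replicates 1, 2, 3 or 4 (edgeR adjusted p 0.155, 0.164, 0.172 and 0.0713), without inhibitor replicate 4 (0.115) and with no filter on low counts (-2.29, 0.0625). Mt2A was called by DESeq2 (-2.06). Injected over CS ranged from 4.07 to 4.97 for Mt2A and from -0.90 to -0.04 for Mt1-ps3, which was called without inhibitor replicate 2 (-0.81, edgeR adjusted p 0.0356). The log2 ratio ranged from 0.19 to 0.41, -0.28 to 0.23, -0.59 to -0.08 and -0.02 to 0.20 in the 4 comparisons, and turned without HFR replicate 3 in HFR over CS (-0.28) and without mimic replicate 1 in mimic over inhibitor (-0.02). Counts of called genes moved more. HFS over CS, HFR over CS and HFR over HFS gave 4, 18 and 1 by DESeq2, and 53, 31 and 7 by DESeq2 without the unmatched libraries. The study states more genes by DESeq2 for HFS and for HFR against CS. Its set of animals was not the same as these libraries, and the difference is not explained. HFS over CS gave 0 with only the 2 groups, HFR over CS 8 with no filter. Leaving out a library gave 0 to 2, 0 to 3 and 0 calls. It gave 0 without CS replicates 1 or 3, HFS replicates 1 or 3, or HFR replicates 1, 2 or 3 in HFS over CS, and 2 without CS replicate 2 or HFR replicate 4. In HFR over CS it gave 0 without CS replicate 1 and 1 without HFR replicate 2. Mimic over inhibitor gave 176 by DESeq2, 125 with no filter, and 0 to 111 with a library left out: 0 without mimic replicates 1 or 3, 2 without mimic 2, 13 without mimic 4, 111 without inhibitor 1, 26 without inhibitor 2 and 1 without inhibitor 4. Injected over CS gave 5410 to 6375 with a library left out, and 5357 to 6407 under the other alternatives. The causes were not tested. Replicate numbers do not pair the rats (r of deviations -0.12 to 0.15 in 9 DIO and 0.05 to 0.21 in 4 miR-211 pairs). With the replicate block the counts were 0, 0 and 2 in the DIO comparisons and 52 in mimic over inhibitor, and the block changed no call of either gene. Mimic counts of 19 to 27 limit the precision of Mt1-ps3.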

Other observations

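A count of genes nearly silent in 1 experiment and abundant in the other was made after the values of AC128848.1 had been seen. At most 2 CPM in every DIO library and at least 100 CPM in every miR-211 library were found for 16 of 32883 genes, AC128848.1 among them. The opposite pattern was found for 9 genes.

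Il1b, an inflammatory cytokine of the acute-phase list, was singled out after its values were seen. It was at 14.0, 16.1, 12.8 and 29.1 CPM in mimic and at 20.1, 479, 158 and 253 CPM in inhibitor. Inhibitor replicate 1 lay within the mimic range for Il1b, while its Mt2A (1038 CPM) and Mt1-ps3 (30.5 CPM) lay above every mimic library. The acute-phase list as a whole did not behave like Il1b there. Its 12 genes with an identifier summed to 1529 CPM in inhibitor replicate 1 and to at most 1013 CPM in mimic. Il1b did not pass the edgeR test (-3.73, SE 0.92, adjusted p = 0.221).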
